A study of Mus musculus with 12 samples.

Results

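This section describes the mRNA levels of 8 receptors that guide lymphocytes into, through and out of tissues: the chemokine receptors Ccr2, Ccr7, Cxcr3, Cxcr4, Cxcr6 and Cx3cr1 and the egress receptors S1pr1 and S1pr5. They were taken by gene symbol from a table of read counts, as 8 of its 33100 gene rows, and all 8 passed the filter on low counts. The mouse samples were labelled as natural killer (NK) cells, innate lymphocytes that kill tumor cells, and 12 bulk RNA-seq libraries fell into 4 groups of 3. These were tumor cKO, tumor WT, spleen cKO and spleen WT, where cKO stands for the conditional knockout of 1 gene and WT for the wild-type genotype. The sources used here do not name the Cre driver, the tumor model, the sorting gate or the mice's age. Whether the 3 libraries of a group stem from separate animals is not stated either, so the p-values reflect the spread between libraries, which may be technical.

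Chemokine receptors are G-protein-coupled receptors that steer cells up gradients of small secreted chemokines. CCR2 binds CCL2 and related chemokines, and CXCR3 binds the interferon-induced CXCL9 and CXCL10. CXCR6 binds CXCL16, and CX3CR1 binds CX3CL1. CCR7 leads cells to CCL19 and CCL21 in lymph nodes, and CXCR4 binds CXCL12, which holds cells in bone marrow and stroma. S1PR1 and S1PR5 sense sphingosine 1-phosphate (S1P), which is abundant in blood and lymph and scarce in tissue, so that they draw cells out of tissue. NK cells use mainly S1PR5 for exit from bone marrow and lymph nodes, and T cells mainly S1PR1.

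Total counts per library ranged from 9542329 to 37118494. The labelled cell type was checked against marker lists, summed as CPM, counts scaled to a common library total. The 14 NK cell markers summed to 45.7–69.1 CPM in tumor cKO and 64.6–227 CPM in tumor WT, against 1420–1820 CPM in spleen cKO and 1410–1830 CPM in spleen WT. Ncr1, which encodes the NK receptor NKp46, averaged 0.616 CPM in tumor cKO and 1.75 CPM in tumor WT, against 132 CPM in spleen cKO and 162 CPM in spleen WT. The NK markers were thus below their spleen level in all 6 tumor libraries, and Ncr1 was near 0 there. Some others of the list were not near 0 in tumor WT. Gzma, the highest of the 14 there, averaged 34.1 CPM and Klrk1 22.4 CPM. In tumor cKO these 2 averaged 11.1 and 12.6 CPM, and in spleen WT 388 and 285 CPM. The samples are called tumor libraries below and not tumor NK cells. The 12 macrophage and monocyte markers summed to 830–2200 CPM in tumor cKO and 6270–13100 CPM in tumor WT, against 148–208 CPM in spleen cKO and 53.8–88.6 CPM in spleen WT. The 10 B cell markers summed to 19.0–45.7 CPM in tumor cKO and 13.1–73.1 CPM in tumor WT, against 2710–3150 CPM in spleen cKO and 3030–3440 CPM in spleen WT. The 14 T cell markers summed to 788–1050 CPM in tumor cKO, 354–434 CPM in tumor WT, 316–414 CPM in spleen cKO and 273–317 CPM in spleen WT. No marker of these 4 lists was at 0 reads in a whole group. Tumor WT replicate 2 stood apart, with fibroblast markers at 1650 CPM against 83.1 and 162 CPM in the other tumor WT libraries and 25.3–76.6 CPM in tumor cKO.

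**Figure D1:**
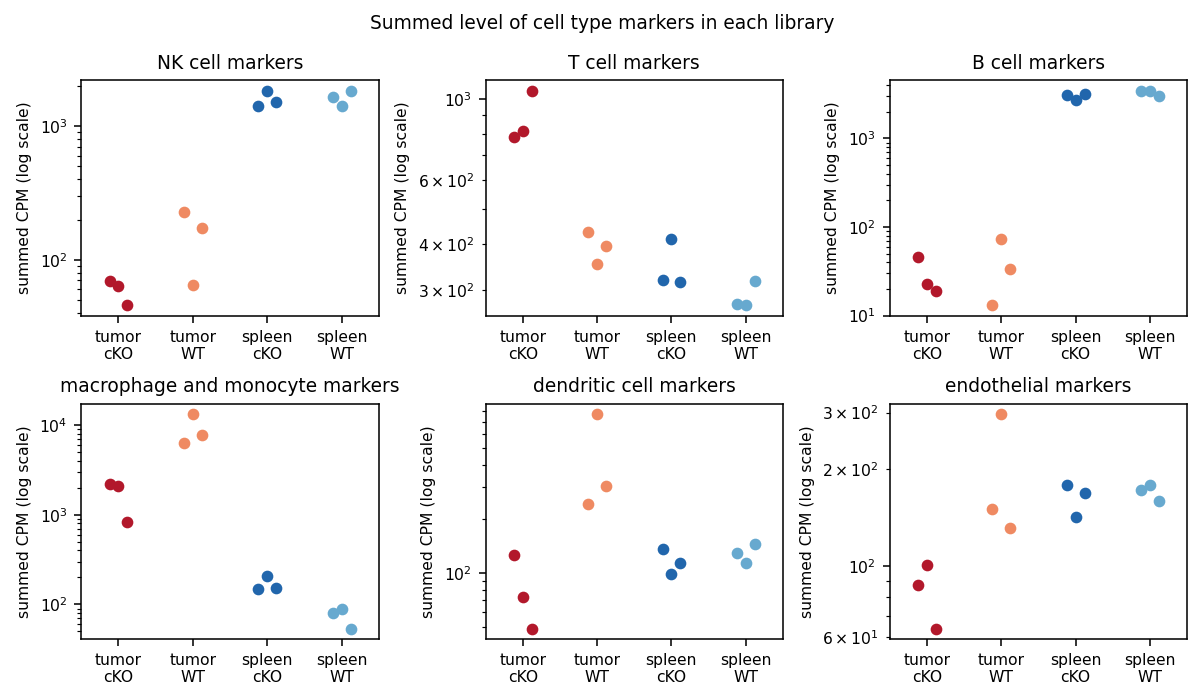
Summed CPM of the marker lists for NK cells and other cell types, with 1 point for each library and a log axis; the groups run tumor cKO, tumor WT, spleen cKO and spleen WT. NK and B cell markers were lower in all tumor than in all spleen libraries, and macrophage and monocyte markers were highest in tumor WT, at 6270–13100 CPM.

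The receptors lie on 5 chromosomes of GRCm38, and 4 of the 8 on chromosome 9. The gene S1pr5 spans chr9:21242912-21248443 on the minus strand, and Cx3cr1 spans chr9:119901616-120069879 on the minus strand. Cxcr6 (chr9:123806475-123811760) and Ccr2 (chr9:124101950-124113557) lie on the plus strand in a cluster of chemokine receptor genes. Cxcr4 lies at chr1:128588199-128592293, S1pr1 at chr3:115710433-115715072, Ccr7 at chr11:99144196-99155077 and Cxcr3 at chrX:101731535-101734269, all on the minus strand. All 8 have the same start and end in the GENCODE vM21 annotation.

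RefSeq sequences of the 250 bases upstream of the start were matched for 6 of the 8 genes. They are shown for S1pr5 and Cxcr4, which changed in opposite directions between tumor cKO and tumor WT and whose windows hold no exon on their own strand. Each is on GRCm38.p6, 5′ to 3′ on the minus strand, S1pr5 at chr9:21248444-21248693 and Cxcr4 at chr1:128592300-128592549. Capitals mark CACCC, the core letters bound by Krüppel-like factors such as KLF2, or its complement GGGTG.
S1pr5: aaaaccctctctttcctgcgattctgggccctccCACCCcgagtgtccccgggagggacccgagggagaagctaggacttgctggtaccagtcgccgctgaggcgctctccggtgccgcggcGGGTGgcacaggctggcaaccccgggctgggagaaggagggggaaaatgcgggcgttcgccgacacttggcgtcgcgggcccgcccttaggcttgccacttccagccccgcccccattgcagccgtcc
Cxcr4: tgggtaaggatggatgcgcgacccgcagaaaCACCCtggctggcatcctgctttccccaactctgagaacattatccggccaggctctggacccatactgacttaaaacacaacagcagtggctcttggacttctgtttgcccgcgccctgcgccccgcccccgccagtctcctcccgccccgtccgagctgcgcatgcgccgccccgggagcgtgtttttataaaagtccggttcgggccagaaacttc

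Both windows were rich in CpG, with 22 CpG in S1pr5 and 19 in Cxcr4, at the 85.2 and 80.3 percentiles of 32851 upstream windows, whose median was 6. The windows of Cx3cr1, Cxcr3, Cxcr6 and Ccr2 held 4, 3, 3 and 1 CpG. CACCC on either strand was present in the windows of S1pr5 (2 matches), Cxcr4 (1) and Cx3cr1 (1), and in 52.0% of all windows. The T-box core GGTGTG or its complement CACACC had no match in the 6 windows and was present in 16.3% of all. These are matches of letters, not measured sites.

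Among the egress receptors, S1pr5 was higher in tumor cKO than in the other 3 groups, and S1pr1 was low in both tumor groups. S1pr5 had 162, 205 and 254 CPM in tumor cKO replicates 1, 2 and 3, against 101, 81.2 and 103 CPM in tumor WT. In spleen it had 101, 109 and 109 CPM in cKO and 115, 83.1 and 126 CPM in WT. The tumor cKO libraries all lay above the other 9, which overlapped one another. S1pr5 averaged 207 ± 46.1 CPM in tumor cKO and 95 ± 12.1 CPM in tumor WT (SD, n = 3 each). The log2 fold change was 1.13 ± 0.18 (SE), with an adjusted p of 0.00047 in edgeR's quasi-likelihood test with Benjamini-Hochberg adjustment over 16831 genes. That test gave all adjusted p-values below, and a gene was called at an adjusted p under 0.05. S1pr5 shares 51 exon bases with the opposite-strand row RP23-186O3.14, and the strand setting of the counting is not given, so reads of the pair cannot be told apart there. The opposite-strand row had 15.1, 17.1 and 23.3 CPM in tumor cKO, against 11.9, 10.4 and 11.5 CPM in tumor WT and 0.1–1.44 CPM in spleen. The T cell markers summed higher in the same comparison, at 788–1050 CPM in tumor cKO and 354–434 CPM in tumor WT. Of these 14, 6 were called higher and 1 lower, against 16.4% and 21.6% of all genes. NK cell markers went the other way, with 8 of 14 called lower and 0 higher. The part of either list in the S1pr5 difference was not tested.

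S1pr1, the receptor for exit into lymph and blood that CD69 removes from the cell surface, had 6.87, 5.77 and 3.06 CPM in tumor cKO and 6.34, 10.3 and 3.31 CPM in tumor WT. Spleen libraries had 56.8, 63.8 and 63.4 CPM in cKO and 68.6, 79.1 and 64.4 CPM in WT. Every tumor library lay below every spleen library, and the tumor groups overlapped. The log2 difference of tumor cKO and tumor WT was -0.38 (95% interval -1.14 to 0.39, adjusted p = 0.422). Against spleen, S1pr1 was lower in tumor, at a log2 fold change of -3.56 ± 0.37 in cKO (adjusted p = 5.57e-06) and -3.38 ± 0.36 in WT (adjusted p = 6.73e-06). B cell and NK cell markers were lower in tumor too, and T cell markers were higher, by the sums given above. The part of these lists in the S1pr1 difference was not tested. Some B cell and NK cell markers passed the filter on low counts only through spleen, such as Cr2 at 0.803 CPM and Khdc1a at 0.217 CPM in tumor cKO. No count of these markers is therefore given between the tissues.

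The balance of these receptors within a library was read per length, from RPKM (reads scaled to gene length and library total), as the ratio of S1pr5 to S1pr1. It was 28.7, 43.3 and 101 in tumor cKO and 19.3, 9.6 and 37.9 in tumor WT. It was 2.16, 2.08 and 2.1 in spleen cKO and 2.05, 1.28 and 2.38 in spleen WT. The spleen groups stayed within a narrow range, all tumor libraries lay above it, and the tumor groups overlapped.

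**Figure D2:**
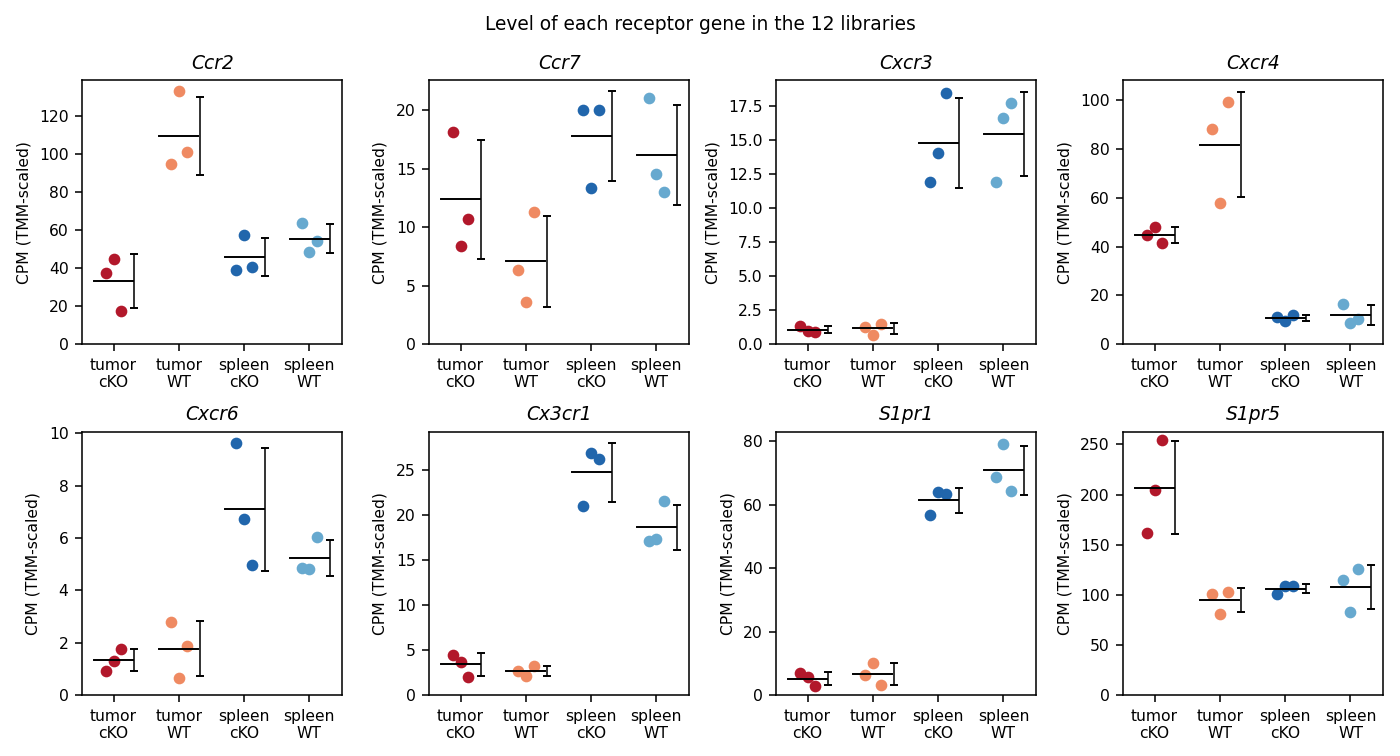
CPM of each receptor in the 12 libraries, with 1 point for each library, a horizontal line at the mean of each group and a bar of 1 SD on either side of it; each panel has its own linear axis from 0. S1pr5 was highest in tumor cKO (162–254 CPM), Ccr2 and Cxcr4 in tumor WT, and Cxcr3, Cxcr6, Cx3cr1 and S1pr1 in the spleen groups.

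Of the chemokine receptors, Ccr2 and Cxcr4 fell in tumor cKO relative to tumor WT. Ccr2, which marks inflammatory monocytes and some lymphocytes, had 37.3, 44.5 and 17.1 CPM in tumor cKO, against 94.9, 133 and 101 CPM in tumor WT. It had 39.1, 57.2 and 40.7 CPM in spleen cKO and 63.6, 48.3 and 54.3 CPM in spleen WT. All tumor WT libraries lay above all others, and tumor cKO overlapped spleen cKO. Between tumor cKO (33 ± 14.2 CPM) and tumor WT (110 ± 20.2 CPM) the log2 fold change was -1.74 ± 0.3, with an adjusted p of 0.000849. Macrophage and monocyte markers moved the same way, with the sums given above. Of these 12, 11 were lower in tumor cKO than in tumor WT and 1 was not called, against 21.6% of all genes lower. Dendritic cell markers were lower in 3 of 7 tested, beside the same 21.6%. They summed to 48.7–126 CPM in tumor cKO, against 243–769 CPM in tumor WT. The part of either list in the Ccr2 difference was not tested. In bulk RNA, fewer cells of a type and less RNA per cell cannot be told apart. Ccr2 has related genes nearby, and the sources do not say how reads that match more than 1 gene were counted.

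Cxcr4 had 44.7, 48 and 41.5 CPM in tumor cKO and 88.4, 57.8 and 99.5 CPM in tumor WT. Spleen values were 11.2, 9.32 and 11.8 CPM in cKO and 16.5, 8.73 and 10.4 CPM in WT. The tumor groups did not overlap each other, and both lay above every spleen library. Cxcr4 averaged 44.7 ± 3.25 CPM in tumor cKO and 81.9 ± 21.6 CPM in tumor WT, a log2 fold change of -0.87 ± 0.23 (adjusted p = 0.00961). It rose in tumor relative to spleen in both genotypes, by 2.05 ± 0.25 in cKO (adjusted p = 1.13e-05) and 2.78 ± 0.25 in WT (adjusted p = 8.27e-07) on the log2 scale. Macrophage and monocyte markers moved with it. In tumor cKO 11 of 12 were lower than in tumor WT, against 21.6% of all genes. In tumor over spleen 10 of 12 were higher in cKO and 11 of 12 in WT, against 31.7% and 33.9% of all genes. Their part in the Cxcr4 differences was not tested.

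Ccr7, the receptor for entry into lymph nodes, had 18.1, 8.36 and 10.7 CPM in tumor cKO, against 6.34, 3.61 and 11.3 CPM in tumor WT. It had 20, 13.3 and 20 CPM in spleen cKO and 21, 14.5 and 13 CPM in spleen WT. The tumor groups overlapped, and so did tumor cKO and spleen cKO. Between tumor cKO and tumor WT the log2 difference was 0.82 (95% interval -0.03 to 1.67, adjusted p = 0.118). The difference passed the threshold without tumor WT replicate 3, at a log2 value of 1.35 with an adjusted p of 0.0174. It passed also without the filter on low counts (adjusted p = 0.0133) and with limma on log2(RPKM + 0.1) (adjusted p = 0.0474). In tumor cKO relative to tumor WT, T cell markers were higher in 6 of 14 and lower in 1, against 16.4% and 21.6% of all genes. B cell markers were higher in 2 of 10 and lower in 1, near those shares, and their sums overlapped. The part of either list in the values of Ccr7 was not tested.

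The receptors of effector and tissue-resident lymphocytes, Cxcr3, Cxcr6 and Cx3cr1, were low in all tumor libraries and overlapped between the tumor genotypes. Cxcr3 had 1.32, 0.962 and 0.852 CPM in tumor cKO and 1.28, 0.677 and 1.45 CPM in tumor WT. Its spleen values were 11.9, 14 and 18.4 CPM in cKO and 11.9, 16.6 and 17.7 CPM in WT. Each spleen library was thus far above each tumor library, with no separation of the genotypes.

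Cxcr6, a receptor of tissue-resident lymphocytes, had 0.939, 1.32 and 1.78 CPM in tumor cKO and 2.79, 0.677 and 1.87 CPM in tumor WT. Its spleen values were 9.61, 6.72 and 4.97 CPM in cKO and 4.86, 4.82 and 6.05 CPM in WT. Tumor and spleen did not overlap, and the genotypes did in each tissue. Cx3cr1, carried by mature NK cells and by monocytes, had 4.48, 3.73 and 2.05 CPM in tumor cKO and 2.67, 2.09 and 3.25 CPM in tumor WT. It had 21, 26.9 and 26.2 CPM in spleen cKO and 17.1, 17.3 and 21.5 CPM in spleen WT, again with no overlap between the tissues.

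Between tumor cKO and tumor WT the log2 difference was -0.07 for Cxcr3 (95% interval -0.82 to 0.68, adjusted p = 0.898). It was -0.36 for Cxcr6 (-1.39 to 0.66, adjusted p = 0.577) and 0.37 for Cx3cr1 (-0.25 to 0.98, adjusted p = 0.332). These intervals leave room for changes of either sign, and for Cxcr6 of more than a log2 unit. Tumor libraries were lower than spleen libraries for all 3. In cKO the log2 fold change of tumor over spleen was -3.81 ± 0.34 for Cxcr3, -2.39 ± 0.48 for Cxcr6 and -2.85 ± 0.29 for Cx3cr1, with adjusted p of 8.67e-07, 0.000805 and 2.38e-06. In WT it was -3.80 ± 0.34, -1.58 ± 0.47 and -2.82 ± 0.29, with adjusted p of 8.16e-07, 0.0102 and 2.74e-06. With limma on log2(RPKM + 1), which understates changes of low genes, Cxcr6 stood at -1.44 in cKO and -1.06 in WT, and Cx3cr1 at -1.90 in cKO and -1.75 in WT. NK cell markers were lower in tumor as well, and macrophage and monocyte markers were higher, by the sums given above. The part of either list in these differences was not tested.

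Counted together, 3 of the 8 receptors changed between tumor cKO and tumor WT, 1 higher (S1pr5) and 2 lower (Cxcr4 and Ccr2). Of all genes tested, 38.0% were called in this comparison, 16.4% higher and 21.6% lower, so 3 of 8 is near the background. The groups did not overlap for these 3 receptors, as for 50.3% of all genes. The median log2 fold change of all genes was -0.117, and 0.0561 with no composition factor. Relative to that median, S1pr5 stood at 1.24, Cxcr4 at -0.755 and Ccr2 at -1.62. With no composition factor they stood at 1.26, -0.738 and -1.61.

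**Figure D3:**
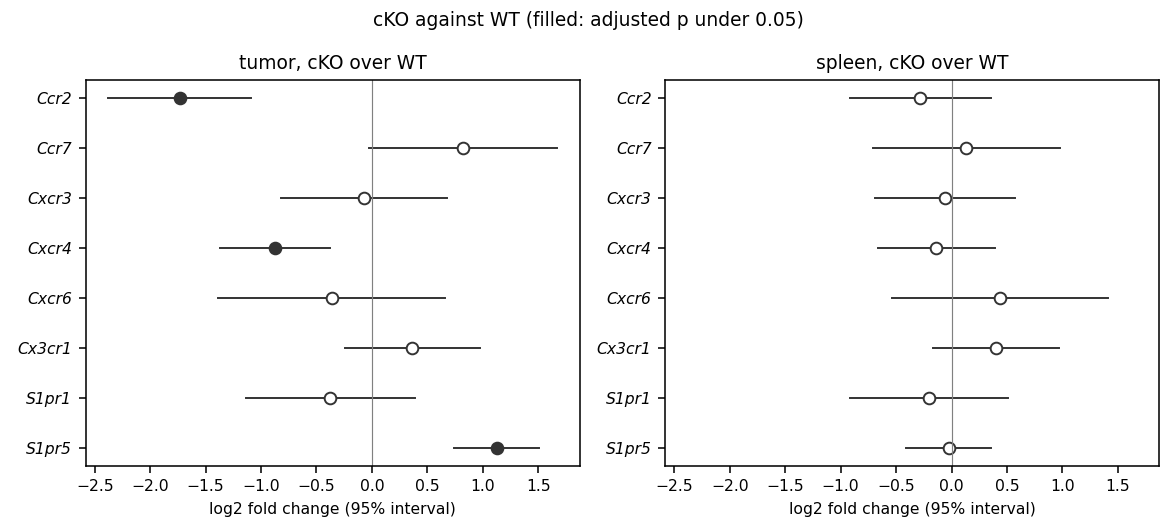
Log2 fold change of cKO over WT for each receptor in tumor and in spleen, with 95% intervals; filled points have an adjusted p under 0.05. In tumor S1pr5 lies above 0 and Cxcr4 and Ccr2 lie below it, and in spleen all 8 intervals include 0.

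In spleen, no receptor was called between cKO and WT, where 0.0297% of all genes (5 genes) were called. By an unadjusted p under 0.05, 784 genes passed, and DESeq2 called 46 genes. The log2 differences ran from -0.28 for Ccr2 (95% interval -0.91 to 0.35) to 0.44 for Cxcr6 (-0.53 to 1.41), and every adjusted p was 1. S1pr5 had the narrowest interval, -0.41 to 0.36 around a log2 difference of -0.03. S1pr1 was the only receptor whose spleen groups did not overlap, at 61.4 ± 3.96 CPM in cKO and 70.7 ± 7.57 CPM in WT, a pattern shown by 11.4% of all genes.

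The cKO effect differed between tumor and spleen for Ccr2 and S1pr5, as tested by the interaction of genotype and tissue. The difference of the log2 fold changes was 1.15 ± 0.25 for S1pr5 (adjusted p = 0.00899) and -1.46 ± 0.41 for Ccr2 (adjusted p = 0.0293). These are 2 of 8 receptors, 1 in each direction, against 18.3% of all genes called, 7.68% higher and 10.6% lower. Without tumor WT replicate 2 the adjusted p of Ccr2 was 0.0626, without spleen cKO replicate 2 it was 0.073, and without spleen WT replicates 2 or 3 it was 0.0721 or 0.0634. It also missed the threshold with no composition factor (0.0506), with limma on log2(RPKM + 0.1) (0.0504) and without tumor WT replicates 2 and 3 together (log2 -1.24, adjusted p = 0.169). For Cxcr4 the difference was -0.74 (95% interval -1.46 to -0.01, adjusted p = 0.145). It passed the threshold without tumor WT replicate 2 (adjusted p = 0.0281) or spleen WT replicate 1 (adjusted p = 0.0422). For the other 5 receptors the difference lay between -0.80 and 0.69, with adjusted p of 0.419 or more.

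Between the tissues, Cxcr4 was the receptor higher in tumor in both genotypes, and Cxcr3, Cxcr6, Cx3cr1 and S1pr1 were lower in both. Of the 8, 6 were called in cKO (2 higher, 4 lower), where 60.5% of all genes were called, 31.7% higher and 28.8% lower. In WT 7 were called (2 higher, 5 lower), where 62.0% of all genes were called, 33.9% higher and 28.1% lower. Tumor and spleen levels that did not overlap were found for 70.0% of all genes in cKO and 67.3% in WT. In cKO the other receptor called higher in tumor was S1pr5, by 0.96 ± 0.18 (adjusted p = 0.000478). In WT, S1pr5 had a log2 difference of -0.19 (95% interval -0.58 to 0.20, adjusted p = 0.375). In WT, Ccr2 was the other receptor higher in tumor than in spleen, by 0.98 ± 0.29 (adjusted p = 0.0108), with a log2 difference of -0.47 (-1.1 to 0.16, adjusted p = 0.18) in cKO. Without tumor WT replicates 2 and 3 together, the WT call was lost for Ccr2 (log2 0.77, adjusted p = 0.169) and for Cxcr6 (log2 -0.91, adjusted p = 0.174), with 1 tumor WT library then assumed to vary like the other groups. The interaction test above is also the test of these tissue differences between the genotypes.

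Ccr7 was lower in tumor than in spleen in WT, at a log2 fold change of -1.21 ± 0.4 (adjusted p = 0.0183). In cKO the log2 difference was -0.52 (95% interval -1.36 to 0.32, adjusted p = 0.262). The call in WT was lost without tumor WT replicate 1 (adjusted p = 0.0552), tumor WT replicate 2 (0.0534) or spleen WT replicate 1 (0.0757). B cell markers were lower and T cell markers higher in tumor in both genotypes, by the sums given above, and their part was not tested.

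**Figure D4:**
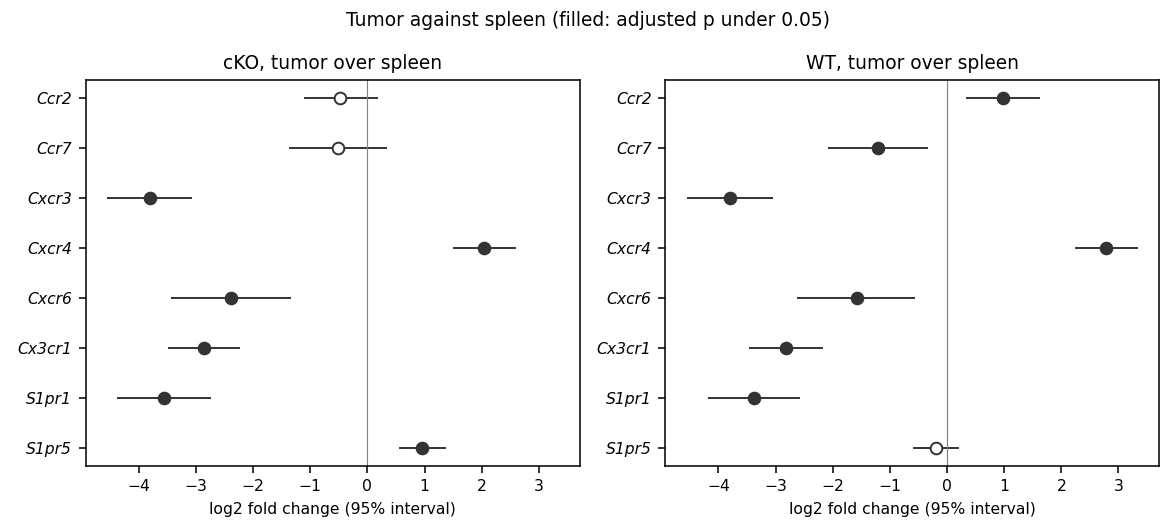
Log2 fold change of tumor over spleen for each receptor, in cKO and in WT, with 95% intervals; filled points have an adjusted p under 0.05. Cxcr4 lies above 0 and Cxcr3, Cxcr6, Cx3cr1 and S1pr1 lie below 0 in both genotypes, while Ccr2 and S1pr5 were called higher in 1 genotype each.

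Per length, S1pr5 was the most abundant of the 8 in tumor cKO, at 86.4 ± 19.4 RPKM, followed by Cxcr4 at 25.8 ± 2.08 RPKM, and these did not overlap. In tumor WT, Cxcr4 (41.4 ± 9.73 RPKM) and S1pr5 (34.8 ± 3.33 RPKM) overlapped at the top, above Ccr2 at 14.9 ± 3.29 RPKM. The order in spleen began with S1pr5 and S1pr1 and held in both genotypes, with S1pr5 at 43.7 ± 2.4 RPKM in cKO and 43.9 ± 9.05 RPKM in WT. S1pr1 followed at 20.7 ± 1.55 RPKM in cKO and 23.6 ± 2.54 RPKM in WT. The other 6 receptors lay between 2.75 and 9.21 RPKM in spleen. Among them neighbours overlapped in cKO, and in WT Cxcr4, Cx3cr1 and Cxcr6 were separated from one another.

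As a share of the summed RPKM of the 8 receptors, S1pr5 took 67.1% ± 7.74 in tumor cKO and 35.4% ± 1.05 in tumor WT, against 41.6% ± 0.734 in spleen cKO and 40.9% ± 5.36 in spleen WT. Cxcr4 took 20.4% in tumor cKO and 41.6% in tumor WT, and under 10% of the sum in each spleen library. The share of Ccr2 was 4.09% in tumor cKO, 15.6% in tumor WT, 6.62% in spleen cKO and 7.78% in spleen WT. S1pr1 took 1.45% in tumor cKO and 2.17% in tumor WT, against 19.7% in spleen cKO and 22.3% in spleen WT. Tumor cKO thus held mostly S1pr5 and tumor WT mostly Cxcr4 and S1pr5. The ratio of Cxcr4 to Cxcr3 in RPKM was 32.3–47.8 in tumor cKO and 65.9–81.7 in tumor WT, against 0.614–0.904 in spleen cKO and 0.503–1.32 in spleen WT. It separated the tumor genotypes and both tissues, though in tumor it rests on only 16–31 reads of Cxcr3 in each library.

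**Figure D5:**
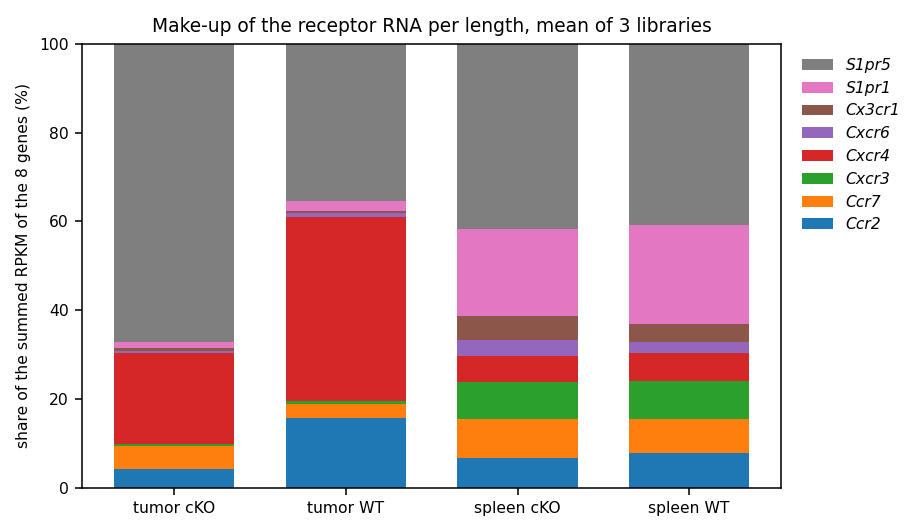
Share of each receptor in the summed RPKM of the 8, as the mean of 3 libraries in each group, in percent. S1pr5 takes 67.1% in tumor cKO and 35.4% in tumor WT, Cxcr4 takes 20.4% and 41.6% in the same groups, and S1pr1 takes 19.7% in spleen cKO and 22.3% in spleen WT.

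Of the chemokines that these receptors bind, those of CCR2, CXCR3 and CXCR6 had clear reads in the tumor libraries and few or none in spleen. Of 8 ligands that passed the filter on low counts, 0 were higher and 3 lower in tumor cKO than in tumor WT (median log2 fold change -1.32, against -0.117 for all genes), where 21.6% of all genes were lower. The 3 were Cxcl16, Ccl8 and Cxcl9. Without the filter 6 were lower, and without tumor WT replicates 2 and 3 together 1 was. Ccl2, Ccl7, Ccl8 and Ccl12 had no reads in spleen and passed the filter through the tumor groups, so no count of ligands is given between the tissues. The CX3CR1 ligand Cx3cl1 averaged 0.446 CPM in tumor cKO and 0.404 CPM in tumor WT, and the CCR7 ligand Ccl21a 0.0401 CPM in tumor cKO and 0.094 CPM in tumor WT, and neither passed the filter. The CXCR6 ligand Cxcl16 averaged 90.6 ± 43.8 CPM in tumor cKO, against 400 ± 197 CPM in tumor WT, a log2 fold change of -2.14 ± 0.44 (adjusted p = 0.00348). It averaged 1.91 CPM in spleen cKO and 0.818 CPM in spleen WT. The CCR2 ligand Ccl2 averaged 39.5 ± 23.4 CPM in tumor cKO and 75.1 ± 22 CPM in tumor WT (adjusted p = 0.21). Of the related CCR2 ligands, Ccl8 averaged 2.56 ± 1.02 CPM in tumor cKO, against 288 ± 269 CPM in tumor WT, and was lower by the test (log2 fold change -6.84 ± 0.93, adjusted p = 0.00297). Ccl7 averaged 21.5 ± 15.1 CPM in tumor cKO and 66.2 ± 21.3 CPM in tumor WT (adjusted p = 0.11). Ccl12 averaged 5.26 ± 3.66 CPM in tumor cKO and 18.1 ± 12.2 CPM in tumor WT (adjusted p = 0.0839). The CXCR3 ligand Cxcl9 averaged 46 ± 17.4 CPM in tumor cKO and 92.7 ± 46.6 CPM in tumor WT. It was lower in cKO by the test (adjusted p = 0.0372), with overlapping groups. Cxcl10, the other CXCR3 ligand named above, was not called and averaged 15 ± 7.96 CPM in tumor cKO and 12.5 ± 3.39 CPM in tumor WT. Cxcl11, of the same list, averaged 1.27 ± 0.663 CPM in tumor cKO and 0.41 ± 0.267 CPM in tumor WT. The CXCR4 ligand Cxcl12 averaged 3.87 ± 3.03 CPM in tumor cKO and 7.14 ± 6.5 CPM in tumor WT (adjusted p = 0.473).

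Of 16 other chemokine and chemoattractant receptors tested, 0 were higher and 4 lower in tumor cKO than in tumor WT (median log2 fold change -0.834), near the 21.6% of all genes that were lower. Without tumor WT replicate 2 the counts were 1 higher and 6 lower, without the filter on low counts 1 higher and 7 lower, and with limma on log2(RPKM + 1) 7 lower. Ccr1, a myeloid receptor encoded in the same cluster as Ccr2, had a log2 fold change of -1.45 ± 0.4 (adjusted p = 0.0137). Cmklr1, the chemerin receptor, had -1.47 ± 0.29 (adjusted p = 0.0018). Some of the 16, such as Ccr1 and Ccr6, passed the filter only through the tissue where they were high. No count of them is therefore given between the tissues. Between tumor WT and spleen WT the log2 fold change was 8.18 ± 0.62 for Ccr1. It was -6.98 ± 0.35 for the B cell receptor Cxcr5 and -6.06 ± 0.43 for Ccr6. Ccr1 averaged 0.302 CPM in spleen WT, and Ccr6 averaged 0.554 CPM in tumor WT.

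Between tumor cKO and tumor WT, 16.4% of all genes were higher and 21.6% lower in cKO (median log2 fold change -0.117). Of 12 genes of S1P receptors, transport, turnover and a related lipid receptor, 0 were higher and 7 lower (median -1.15), while S1pr5 was higher. Without tumor WT replicates 2 and 3 together 4 were lower. Sgpl1, the lyase that degrades S1P, averaged 85.4 ± 20.7 CPM in tumor cKO, against 250 ± 15.4 CPM in tumor WT (log2 fold change -1.55 ± 0.18, adjusted p = 6.26e-05). S1pr3, an S1P receptor of stromal and myeloid cells, had -1.87 ± 0.43 (adjusted p = 0.00441), and Plpp3, a lipid phosphate phosphatase, -2.07 ± 0.56 (adjusted p = 0.0119). Gpr183, which senses oxysterols, had -1.42 ± 0.34 (adjusted p = 0.00617).

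Among 21 genes of receptor signalling and migration, 2 were higher and 11 lower in tumor cKO than in tumor WT (median -0.396). Of all genes, 16.4% were higher and 21.6% lower (median -0.117). The G-protein subunit gene Gng2 had a log2 fold change of -1.85 ± 0.23 (adjusted p = 0.000107), Rgs2, which dampens G-protein signals, -1.12 ± 0.22 (adjusted p = 0.0015), and the inhibitory G-protein subunit Gnai3 0.84 ± 0.16 (adjusted p = 0.00139). Of the 21, 8 were called in all with no composition factor, 8 without tumor WT replicate 1, 8 by limma and 7 with the tumor groups fitted alone.

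Among 17 homing regulators and adhesion genes, 2 were higher and 11 lower in tumor cKO than in tumor WT (median -1.01). The shares of all genes were again 16.4% higher and 21.6% lower, with a median of -0.117. Klf2, a factor that drives S1pr1 transcription in T cells, averaged 11.6 ± 2.85 CPM in tumor cKO, 23.9 ± 5.69 CPM in tumor WT, 70.4 ± 3.67 CPM in spleen cKO and 82.1 ± 3.47 CPM in spleen WT. Its log2 fold change between tumor cKO and tumor WT was -1.04 ± 0.2 (adjusted p = 0.00121). Tbx21 encodes T-bet, which NK cells need for S1pr5 expression, and averaged 3.06 ± 1.2 CPM in tumor cKO and 9.8 ± 4.32 CPM in tumor WT (log2 fold change -1.65 ± 0.32, adjusted p = 0.00179). In spleen Tbx21 stood at 73.3 ± 4.53 CPM in cKO and 69.7 ± 9.86 CPM in WT. S1pr5 was highest in the group with the lowest Tbx21. Bulk RNA does not show whether both transcripts came from the same cells, and their relation was not tested.

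Zeb2, a factor of NK maturation that macrophages also express, had -1.45 ± 0.34 between tumor cKO and tumor WT (adjusted p = 0.00597). Cd69, whose product holds S1PR1 inside the cell, averaged 59.1 ± 12.1 CPM in tumor cKO and 35.6 ± 4.28 CPM in tumor WT (log2 fold change 0.73 ± 0.19, adjusted p = 0.00857). Itga1, an integrin of tissue-resident cells, had -1.92 ± 0.41 (adjusted p = 0.00295), and the selectin ligand Selplg -1.52 ± 0.18 (adjusted p = 9.11e-05). Macrophage and NK cell markers fell in the same comparison, NK cell markers in 8 of 14 with none higher, against 21.6% of all genes lower. The part of these markers in these counts was not tested. In spleen none of the genes of these 5 lists was called between cKO and WT.

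Over the 12 libraries, the genes whose levels ran closest to each receptor were found by the mean absolute difference of log2 CPM after each gene's own mean was subtracted, among 9335 genes (9336 for Cxcr6). For S1pr5 these were Rrp15, Smarcc1 and Bri3bp, at 0.133, 0.134 and 0.136. Rrp15 averaged 221 CPM in tumor cKO, 93.8 CPM in tumor WT, 115 CPM in spleen cKO and 101 CPM in spleen WT. For Cxcr4 they were Atp6v1f, Lrrc8d and Shfm1, at 0.165, 0.165 and 0.167, and for Ccr2 Zfp385a, Vsir and Tmem8, at 0.16, 0.16 and 0.186. Vsir averaged 38.1 CPM in tumor cKO, 132 CPM in tumor WT, 55.6 CPM in spleen cKO and 59.1 CPM in spleen WT.

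The other 5 receptors ran less close to any gene. The nearest was Sipa1 for S1pr1 (0.238), Cbx7 for Cxcr3 (0.245), Zfp169 for Cx3cr1 (0.236), Cd27 for Cxcr6 (0.265) and Traf3ip1 for Ccr7 (0.274). Swap70 was among the 3 nearest for both Cxcr3 and S1pr1.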

How the data were processed

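Bulk RNA-seq libraries of 4 groups of 3 were analysed. Reads were mapped to mm10 (GRCm38) with TopHat2 2.0.6, per the submitters' processing notes. For the counting program, its strand setting and any trimming, the sources used here give no detail. Deposited by the authors were whole-number read counts per gene for 33100 rows and, in a second table, RPKM values scaled to gene length and library total. The deposited RPKM values matched those recomputed from the counts up to 1 constant for each library. Of the counts from 1 to 49, 71.6% were even, so the noise of counting exceeds that of single reads. The genotype labels were not checked against the level of the knocked-out gene.

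Counts were tested in R 4.3.3 with edgeR 4.0.16: filterByExpr kept 16831 genes, TMM factors scaled the totals, and a robust quasi-likelihood model was fitted to all 12 libraries with 4 group means (8 residual degrees of freedom). Tests were two-sided, with Benjamini-Hochberg adjustment over all genes tested and calls at an adjusted p under 0.05. CPM are levels over TMM-scaled totals, as mean ± SD of 3 libraries; fold changes are log2 ± SE. The script was tested on simulated data. Comparisons share libraries: tumor cKO, tumor WT, spleen cKO and spleen WT each enter several. The floor of 3 counts and the intervals cover counting error or library spread only.

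The 8 receptors and the lists were chosen with earlier results of these data known. Named beside the receptors were, for each list, up to 3 called genes with the largest log2 fold change, a mean log2 CPM of at least 2 and groups that did not overlap, for cKO against WT in tumor and for tumor against spleen in WT; Klf2, Tbx21, Zeb2, Cd69 and Gpr183; and the 3 genes nearest to each receptor. Some genes that this rule picks are not reported here. The ligands other than Cxcl16 and Cxcl9, and Gzma and Klrk1, were named after their values were seen. Alternatives were DESeq2 1.42.0, its size factors, no composition factor, no filter, the 2 groups compared alone, the replicate number as a block, limma 3.58.1 on log2(RPKM + 0.1) and log2(RPKM + 1), and each library left out. Leaving out tumor WT replicates 2 and 3 together was added after seeing the data.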

Additional observations from a re-analysis of the deposited data

Results flagged for a closer look

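The effect of the knockout differed between tumor and spleen for 2 of the 8 receptors by the test of the difference itself. Of all genes, 18.3% were called by this test, so 2 of 8 is near the background. For Ccr2 the difference of the log2 fold changes (tumor minus spleen) was -1.455 (adjusted p = 0.0293), with a log2 fold change of -1.74 in tumor and -0.28 in spleen. For S1pr5 it was 1.152 (adjusted p = 0.00899), with 1.13 in tumor and -0.03 in spleen. The call of Ccr2 was lost in 7 of 20 alternatives, and that of S1pr5 held in all 20. The macrophage and monocyte markers summed to 830–2200 CPM in tumor cKO and 6270–13100 CPM in tumor WT, and to 148–208 CPM in spleen cKO and 53.8–88.6 CPM in spleen WT. The difference of their cKO effects between the tissues was called lower for 10 of 12, against 10.6% of all genes. The T cell markers summed to 788–1050 CPM in tumor cKO and 354–434 CPM in tumor WT, and to 316–414 CPM in spleen cKO and 273–317 CPM in spleen WT. The part of these cell types in either result was not tested.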

How the results depend on the processing

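Over all comparisons, the 8 receptors kept their direction and side of the threshold in 774 of 832 repeats under an alternative, lost the call in 12, gained it in 5 and changed sign in 41. The calls of Ccr2, Cxcr4 and S1pr5 between tumor cKO and tumor WT held in all alternatives, with adjusted p up to 0.0292, 0.0482 and 0.0117. The number of receptors whose cKO effect differed between the tissues was 1 in place of 2 with no composition factor, with limma on log2(RPKM + 0.1) and without tumor WT replicates 2 and 3 together, and 1 to 3 with each library left out.

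Sign changes concerned log2 values that were not called. The main values furthest from 0 among them were -0.378 for S1pr1 and -0.364 for Cxcr6, both between tumor cKO and tumor WT. For the difference of the cKO effects, Cxcr3 gave 0.00778 with DESeq2, 0.152 with no composition factor, 0.00934 with no filter, 0.0205 with the replicate block, and 0.133 and 0.071 with limma on log2(RPKM + 0.1) and log2(RPKM + 1). Cx3cr1 gave 0.124 with no composition factor and 0.013 with log2(RPKM + 0.1), and S1pr1 gave 0.0857 and 0.0936 with the limma fits. Between tumor cKO and tumor WT, Cxcr3 gave 0.114 with no composition factor and 0.0903 and 0.0324 with the limma fits. Between spleen cKO and spleen WT, S1pr5 gave 0.0143 and 0.0136 with the limma fits. With each library left out, the ranges for tumor cKO against tumor WT were -0.373 to 0.17 for Cxcr3, -0.778 to 0.139 for Cxcr6 and -0.673 to 0.108 for S1pr1. For spleen cKO against spleen WT they were -0.253 to 0.0767 for Cxcr3, -0.317 to 0.179 for Cxcr4 and -0.185 to 0.0979 for S1pr5. For the difference they were -0.316 to 0.23 for Cxcr3, -0.288 to 0.241 for Cx3cr1 and -0.467 to 0.313 for S1pr1. The cause was not tested.

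The labels do not say whether replicate numbers pair the samples. Deviations of same-numbered cKO and WT libraries from their group means correlated at -0.088, -0.02 and 0.11 in tumor. In spleen they correlated at -0.003, 0.023 and 0.027. For same-numbered tumor and spleen libraries the values were -0.016, 0.039 and 0.025 in cKO and 0.0099, 0.007 and 0.019 in WT. With 3 libraries in each group, these values cannot settle whether samples were paired. With the number as a block, the counts of receptors called were 3 and 0 for cKO against WT in tumor and spleen, 6 and 7 for tumor against spleen in cKO and WT, and 2 for the difference. Of all genes, 5 were called between spleen cKO and spleen WT, against 46 with DESeq2, 230 with no filter, 31 with the spleen groups alone, 10 and 11 with limma, 2 with the block and 0 to 8 with each library left out. Counting noise limits Cxcr3 and Cxcr6 most in tumor, where both were under 3 CPM.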
